A study of Mus musculus with 20 samples.

Results

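The comparison described here set the colon of mice carrying AOM/DSS-induced tumours against the colon of untreated mice, across every expressed gene. It used 10 of the 20 mice in the series, 5 of the AOM/DSS group (mice 23, 30, 33, 44 and 52, labelled as the model group) and 5 of the Control group (mice 17, 37, 41, 48 and 50), with 1 RNA library per mouse. The other 10 mice received Pien Tze Huang (PZH), a Chinese herbal preparation, at 250 mg/kg/d, alone or with AOM/DSS, and served only for a second look at the same contrast. All mice were male C57BL/6. Control mice were given water by gavage for 91 days. AOM/DSS mice received the same water gavage, 1 intraperitoneal injection of azoxymethane (AOM) at 12.5 mg/kg on day 1 and, 7 days later, 2% dextran sulfate sodium (DSS) in the drinking water for 5 days followed by 2 weeks of water, in 4 cycles. The tissue label and the study's methods give colon as the source of the RNA, whereas the extraction text of the labels names the abdominal aorta. The sources do not say whether tumours were cut away from the surrounding mucosa and wall, nor which segment of the colon was taken. Whether both groups were sampled alike is therefore not known, and the values are described as those of colon tissue from tumour-bearing and untreated mice. The measurement was RNA-seq after removal of ribosomal RNA, deposited as FPKM, that is, fragments scaled by transcript length and by sequencing depth, and summed here over the annotated transcripts of each gene. Of 32991 genes with a value, 15812 reached 0.5 FPKM in at least 5 of the 10 mice and were tested. The depth read from the smallest steps of the values was 16048000 to 19426000 fragments in Control mice and 16844000 to 19204000 in AOM/DSS mice. Only 48.2 to 52.5% of low values lay within 0.01 of a whole step, so these depths are estimates.

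Azoxymethane is metabolised to a compound that alkylates DNA in the colonic epithelium, and repeated DSS damages the mucosa and brings on colitis. The tumours that follow are known to carry activated Wnt/β-catenin signalling and lie mostly in the distal colon. Healthy colonic mucosa renews itself from stem cells at the crypt base, whose progeny become absorptive colonocytes, mucus-secreting goblet cells, hormone-secreting enteroendocrine cells and tuft cells. The mouse colon normally lacks Paneth cells, the antimicrobial cells at the base of small intestinal crypts.

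The libraries were those of colon in both groups. E-cadherin (Cdh1), which joins epithelial cells, was at 278 ± 39.7 FPKM (mean ± SD, n = 5) in Control and 286 ± 13.8 in AOM/DSS mice, and the intestinal cadherin Cdh17 at 193 ± 27.9 and 196 ± 16.1 FPKM. Hoxb13, a homeobox gene of the distal colon, was above 100 FPKM in every mouse. Keratin Krt8, also on the colon marker list, was uneven, at 0.105 to 3071 FPKM in Control and 0.74 to 1873 in AOM/DSS mice. The small intestinal enzymes Lct and Sis and the pancreatic enzymes Prss2, Pnlip and Ctrb1 stayed below 0.2 FPKM in all 10 mice. Of the other small intestinal markers, Apoa4 also stayed below 0.2 FPKM and Slc10a2 was at 0.42 to 4.52. Fabp6 was at 4.84 to 61.6 FPKM in Control and 0.326 to 1.98 in AOM/DSS mice. A pair of Control libraries stood apart, because mice 17 and 50 carried genes of stratified squamous epithelium, which lines the anal canal. Keratin Krt5 was at 33.9 and 20.9 FPKM in these 2 mice and at no more than 0.0936 in the other 3 Control mice, and Krt13 was at 125 and 126 FPKM against no more than 0.527. Krt14, another basal keratin, was at 61.0 and 45.6 FPKM in them, at no more than 1.27 in the other Control mice and at 6.20 to 22.5 in AOM/DSS mice. Control mouse 50 also had the highest smooth muscle myosin, with Myh11 at 431 FPKM against 106 to 231 in the other Control mice. Results that rest on these libraries are given with and without mice 17 and 50, a choice made after their values were seen. Some single estimates switched between 0 and high values. Epcam, an epithelial surface protein, was listed at 0 in 8 of 10 mice and at 844 and 672 FPKM in AOM/DSS mice 23 and 33, and such a swing, from at least 10 FPKM to under 5% of the highest value, occurred within a group in 243 genes tested, 29 of them among the 1124 called with a fold above 2, for reasons that were not tested. Of the tested genes named below these were Cyp2c55, Jchain and Mmp3 in AOM/DSS mice and Ang4, Krt13, Krt14, Mt4, S100a8 and S100a9 in Control mice. In all bulk values below, fewer cells of a type and less RNA per cell cannot be told apart.

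The colon of AOM/DSS mice differed broadly from that of Control mice. Genes of Paneth cells, neutrophils, mast cells, matrix proteases and crypt base stem cells were higher, and genes of mature colonocytes, drug metabolism, mitochondrial respiration, smooth muscle and enteric nerve were lower. Without Control mice 17 and 50, 8 rather than 16 smooth muscle genes were lower, and 6 rather than 11 mast cell genes were higher. All 18 alpha-defensins tested, a part of the Paneth cell genes, passed the filter through the AOM/DSS mice alone. So did 9 neutrophil and 3 mast cell genes. Of the 15812 genes, 3739 (23.6%) were called, that is, had a Benjamini-Hochberg adjusted P under 0.05 in limma, 2596 higher (16.4%) and 1143 lower (7.23%). Genes are said to have risen or fallen only where they were called. A fold above 2 on the log2(FPKM + 1) scale was added to the call for 853 higher (5.39%) and 271 lower genes (1.71%). Beyond 4-fold the counts were 262 higher and 33 lower, and beyond 16-fold 53 and 2. The groups did not overlap in 2917 genes (18.4%), of which 2058 were higher and 859 lower in the AOM/DSS mice. The excess of higher calls depended on scaling, since the median of all differences was 0.09 with FPKM as deposited. After median-of-ratios scaling, 1923 genes were higher and 1599 lower, and after upper-quartile scaling 1739 and 1882, with medians of all differences at 0.0047 and -0.03. Counts of higher or lower genes below are for FPKM as deposited. The filter admitted 209 genes that no Control mouse expressed at 0.5 FPKM and 26 that no AOM/DSS mouse did, and such genes could hardly pass without a difference.

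The largest rise was that of Defa24, an alpha-defensin of Paneth cells. It had a listed value of 0 in each of the 5 Control mice and reached 622, 239, 391, 886 and 1218 FPKM in AOM/DSS mice 23, 30, 33, 44 and 52, the order used for AOM/DSS values throughout. Clca4b, of a family of chloride-channel regulators, was at 0.8, 2.77, 0.922, 5.50 and 8.01 FPKM in Control mice 17, 37, 41, 48 and 50, likewise the order used below, and at 483, 487, 309.6, 323 and 314 FPKM in AOM/DSS mice. The groups did not overlap, and the log2 difference was 6.64 ± 0.42 (SE, adjusted P = 4.26e-06). The lipase-related genes Pnliprp1 and Pnliprp2, known from the exocrine pancreas, rose from 0.857 ± 0.213 to 106 ± 53.3 FPKM and from 1.19 ± 0.38 to 101.3 ± 56.0, while the pancreatic genes named above stayed near 0. Mt4, a metallothionein of squamous epithelium, was at 16.0, 0.275, 0.258, 0 and 4.38 FPKM in Control and 104.6, 163, 41.8, 184 and 203 in AOM/DSS mice, so mice 17 and 50 had the highest of the Control values and still lay below every AOM/DSS mouse. Wfdc18, a whey acidic protein family member, rose from 7.75 ± 2.89 to 383 ± 116 FPKM (adjusted P = 1.79e-06). Wif1, a secreted Wnt inhibitor, rose 154-fold on mean FPKM.

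The largest fall was that of the cytochrome P450 Cyp2c55. It was at 374, 305, 364, 211 and 329 FPKM in Control and 2.33, 76.6, 32.2, 1.197 and 60.4 FPKM in AOM/DSS mice, a log2 difference of -4.25 ± 0.94 (adjusted P = 0.00878). No value overlapped, and within the AOM/DSS group mice 23 and 44 were far below the other 3. Sycn, syncollin, a secretory granule protein, fell from 1413, 2156, 1023, 1134 and 1528 to 137, 422, 155, 119.8 and 99.0 FPKM. Mouse 30 kept the highest of the AOM/DSS values, below the lowest Control value. Tgm3, a transglutaminase, fell from 393 ± 81.1 to 62.1 ± 24.1 FPKM, Naaladl1, a brush border peptidase, from 22.5 ± 7.53 to 2.47 ± 1.09, and Selenbp1, a selenium-binding protein of mature epithelium, from 547 ± 84.5 to 109 ± 53.6. Retnla, a resistin-like molecule, fell from 8.64 ± 5.97 to 0.561 ± 0.697 FPKM. Tnnt2, cardiac troponin T, fell from 9.86 ± 3.67 to 1.25 ± 1.42 FPKM, and the tubulin-binding genes Tppp and Tppp3 fell by 2.53 and 2.26 on the log2 scale. Crip1, a LIM domain protein, fell from 1501 ± 660.2 to 299.9 ± 41.1 FPKM (adjusted P = 0.000158).

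**Figure D1:**
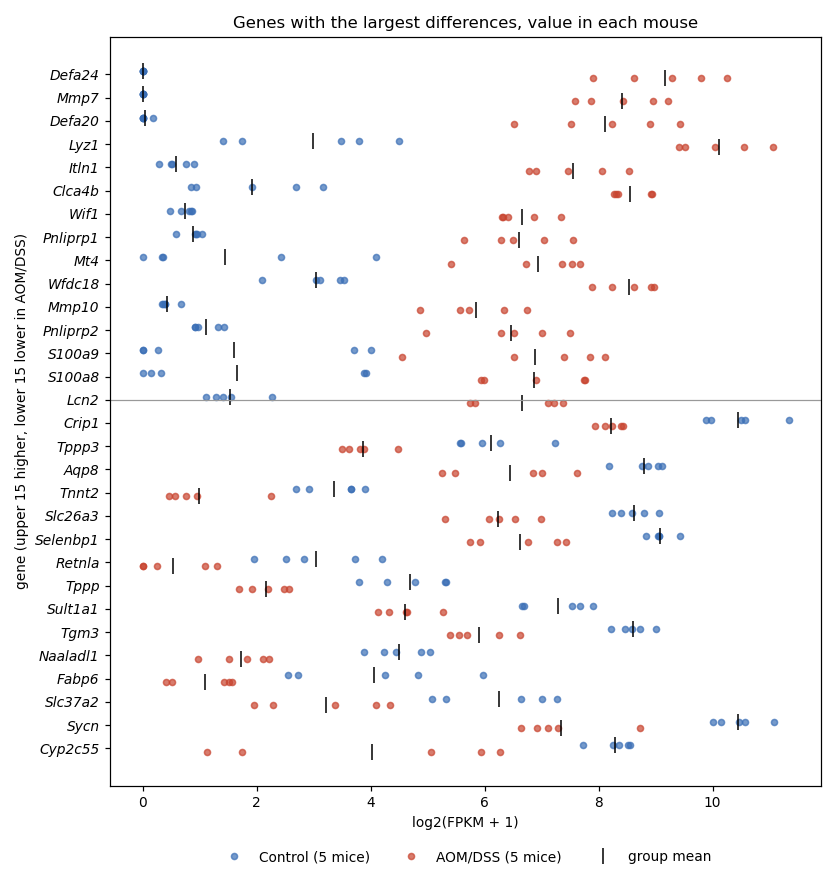
Each point is 1 mouse (blue, Control; red, AOM/DSS) and each black tick a group mean, on a log2(FPKM + 1) axis, for 15 rising and 15 falling genes, those with the largest differences among called, non-overlapping genes. In each of the 30 genes the 5 red and the 5 blue points are separate, and the rises, up to 9.17, were larger than the falls, down to -4.25.

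The genes were then grouped by cell type and pathway. Outside the alpha-defensins, neutrophil and mast cell genes, at most 3 members of a list passed the filter through the AOM/DSS mice alone, except for 5 of the 13 Wnt genes, and all of these rose. They included Cdkn2a, Gata5, Il23a, Lama1, Prox1, Spp1 and Tff1, whose rises were fixed by the filter and are descriptions. A share called in 1 direction is read against the 16.4% of all genes tested that rose and the 7.23% that fell.

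**Figure D2:**
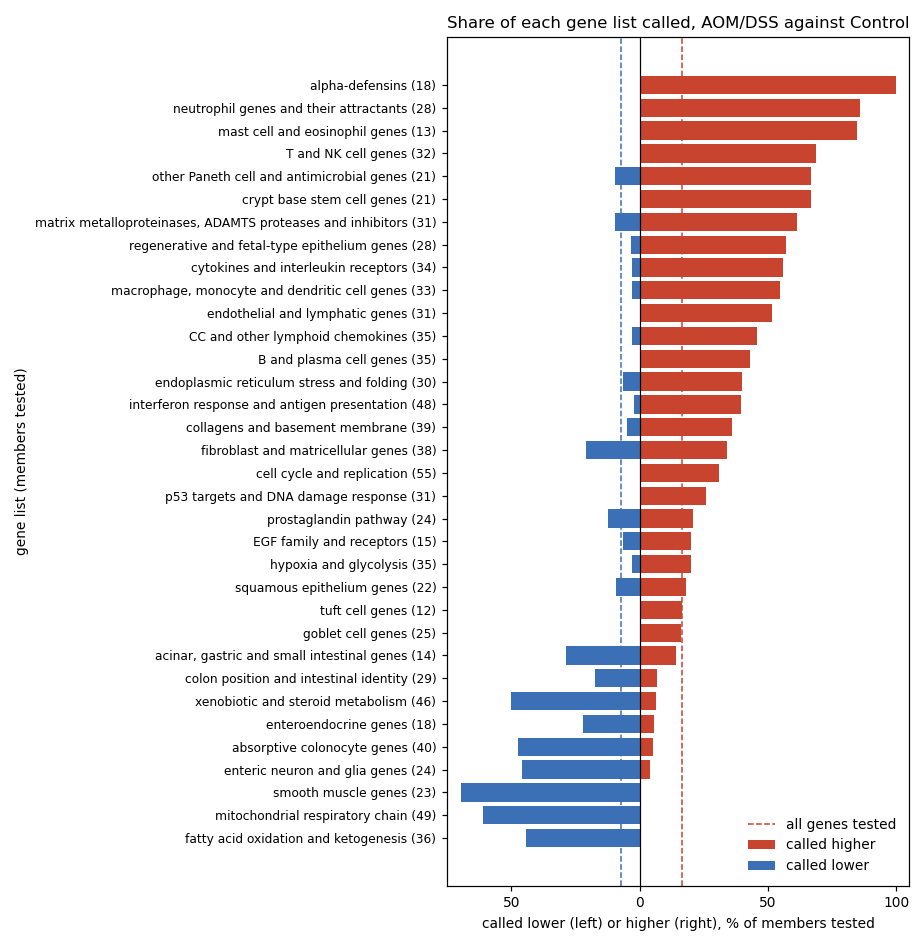
Bars give the percentage of tested members of each gene list called higher (right, red) or lower (left, blue) in AOM/DSS mice, with dashed lines at the 16.4% and 7.23% of all genes tested. Alpha-defensins, neutrophil genes and mast cell genes lie at the high end, and smooth muscle, respiratory chain and fatty acid oxidation genes, none of which had a member called higher, at the low end. Of the members tested, all 18 alpha-defensins, 9 neutrophil genes and 3 mast cell genes had passed the filter through the AOM/DSS mice alone. The filter fixed that part of these bars. Without Control mice 17 and 50, 6 mast cell genes were called higher and 8 smooth muscle genes lower.

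Paneth cell genes, which healthy mouse colon hardly expresses, were present in all 5 tumour-bearing mice. The alpha-defensins, small pore-forming peptides that kill bacteria, were absent or nearly so from Control colon, where the highest mean of the 22 genes in the files was 0.0257 FPKM. Of these, 18 passed the filter and rose, all through the AOM/DSS mice alone, so their count is a description of presence rather than support for a difference. Defa20 was at 301, 90.8, 182, 475 and 687 FPKM in the AOM/DSS mice and Defa17 at 284, 97.6, 172, 359 and 547, lowest in mouse 30 in both genes. Defa25, Defa27, Defa28 and Defa29 did not pass the filter, with AOM/DSS means of 0.276, 0.0535, 0.178 and 1.14 FPKM. Alpha-defensin genes are near-identical copies, and how reads were divided among them is uncertain. Lyz1, the Paneth cell lysozyme, was at 21.5, 12.8, 1.66, 2.33 and 10.2 FPKM in Control and 1059, 732, 681, 1509.9 and 2128 in AOM/DSS mice, so that each AOM/DSS value was well above every Control value. The log2 difference of Lyz1 was 7.14 ± 0.59 (adjusted P = 2.32e-05). Of the other 21 Paneth and antimicrobial genes tested, 14 rose and 2 fell. Those that fell were Mptx1, a mucosal pentraxin, from 952 ± 718 to 127 ± 115 FPKM, and Wfdc2, a secreted protease inhibitor, from 355 ± 65.8 to 95.7 ± 41.1. Itln1, an intelectin that binds microbial sugars, rose from 0.525 ± 0.256 to 207 ± 109 FPKM, and Ang4, a bactericidal ribonuclease, from 12.4 ± 22.7 to 161 ± 49.0. Lcn2, a lipocalin that withholds iron from bacteria, rose 55.7-fold on mean FPKM (adjusted P = 7.4e-06) and Pla2g2a, a gene of the secreted phospholipase family, 24.5-fold (adjusted P = 3e-05). Others did not pass the test. Macrophage lysozyme, Lyz2, was at 217 ± 73.0 and 329 ± 62.9 FPKM (adjusted P = 0.0633), and Reg4, a lectin of colonic secretory cells, at 311 ± 168 and 463 ± 113 (adjusted P = 0.18). Reg3b, a bactericidal lectin, missed the filter, at 0 to 0.487 FPKM in Control mice and 0.392 to 88.4 in AOM/DSS mice.

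Absorptive colonocyte genes went the other way. Of 40 tested, 19 fell and 2 rose, and the median log2 difference was -0.72 against 0.09 for all genes tested. The chloride-bicarbonate exchanger Slc26a3 was at 536, 299, 336, 446 and 384 FPKM in Control and 66.4, 91.8, 126, 38.4 and 74.9 in AOM/DSS mice. The groups were far apart, mouse 44 had the least, and the log2 difference was -2.39 ± 0.28 (adjusted P = 0.000231). The water channel Aqp8 was at 433, 550.4, 469, 527 and 290.4 FPKM in Control and 36.9, 127, 195, 43.6 and 114 in AOM/DSS mice, with mouse 33 nearest to the Control range. Slc37a2, a phosphate-linked sugar-phosphate antiporter, fell 8.78-fold on mean FPKM (adjusted P = 0.00346). Carbonic anhydrase Car1, which supplies protons and bicarbonate, fell from 793 ± 318 to 181 ± 92.8 FPKM. The late differentiation keratin Krt20 did not pass the test, at 396 ± 112 and 296 ± 74.4 FPKM (adjusted P = 0.222), nor did villin, Vil1, at 237 ± 22.5 and 194 ± 21.6 (adjusted P = 0.0721). The 2 that rose were Clca4b and Scnn1b, a subunit of the epithelial sodium channel, the latter from 1.47 ± 1.40 to 5.13 ± 2.87 FPKM. Scnn1b lost its call in 7 of the 10 fits that left out 1 mouse (adjusted P up to 0.0963).

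Enzymes that handle drugs, steroids and fatty acids fell as well. Of 46 xenobiotic and steroid metabolism genes, 23 fell and 3 rose, with a median of -0.88. Those that rose were Cyp2b10, Cyp2j6 and Cyp27a1, by 1.11, 0.30 and 0.72 on the log2 scale, of which Cyp2j6 and Cyp27a1 lost their call when single mice were left out, 5 and 8 of the 10 (adjusted P up to 0.0653 and 0.084). Sult1a1, a phenol sulfotransferase, fell from 102, 237, 184, 203 and 99.9 to 19.05, 37.8, 23.6, 16.6 and 23.9 FPKM, with no overlap and an adjusted P of 0.000115. The carboxylesterase Ces1d fell by 1.93 on the log2 scale, the P450s Cyp2c68 and Cyp2s1 by 1.89 and 1.77 and the glutathione transferase Gstm3 by 1.82. Alcohol dehydrogenase Adh1, the most abundant of those that did not pass the test, was at 399 ± 206 and 235 ± 113 FPKM (adjusted P = 0.423). Of 36 genes of fatty acid oxidation and ketogenesis, 16 fell and none rose. Most of these falls were smaller than 2-fold on the log2(FPKM + 1) scale: the thiolase Acaa2 fell by 0.94, the medium-chain dehydrogenase Acadm by 0.87 and the nuclear receptor Ppara, which drives such genes, by 0.73. Fabp6, the ileal bile acid-binding protein, was the exception, at 27.5, 61.6, 5.64, 4.84 and 18.2 FPKM in Control and 0.43, 1.70, 1.85, 1.98 and 0.326 in AOM/DSS mice (log2 difference -2.98 ± 0.61). The Control values of Fabp6 spread over more than 10-fold but stayed above every AOM/DSS value.

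Respiratory chain genes were lower by modest amounts. Of 49 tested, 30 fell, each by less than 2-fold on the log2(FPKM + 1) scale, and none rose, with a median of -0.45. The cytochrome oxidase subunit Cox5b was at 180.0, 298, 256, 269 and 278 FPKM in Control and 165, 146, 143, 103 and 107 in AOM/DSS mice. These groups did not overlap (adjusted P = 0.00298). Cox6a1 fell from 1091 ± 211 to 567 ± 39.9 FPKM and the complex I subunit Ndufa1 from 186 ± 35.4 to 103 ± 9.27. The ATP synthase subunits Atp5b and Atp5a1 did not pass the test, at log2 differences of -0.23 and -0.25. The 15 mitochondrially encoded genes took 8.06% ± 0.627 (SD, n = 5) of summed FPKM in Control and 6.12% ± 0.275 in AOM/DSS mice (exact two-sided permutation P = 0.00794, adjusted over 5 shares 0.0132). That P is the smallest that 5 mice against 5 can give. Shares are parts of 1 total, in which the immunoglobulin share given below was larger in AOM/DSS mice. Of the mitochondrially encoded genes among the 10 highest, mt-Co1, mt-Cytb and mt-Nd1 did not pass the test (adjusted P = 0.0551, 0.0861 and 0.0791). Another cytochrome oxidase gene among them fell (adjusted P = 0.0183). Copies of mitochondrial genes in the nuclear genome, Gm29216, Gm10925, Gm28661 and Gm28437, were among the 10 highest genes and share reads with the mitochondrial genes, so the division between them is uncertain.

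**Figure D3:**
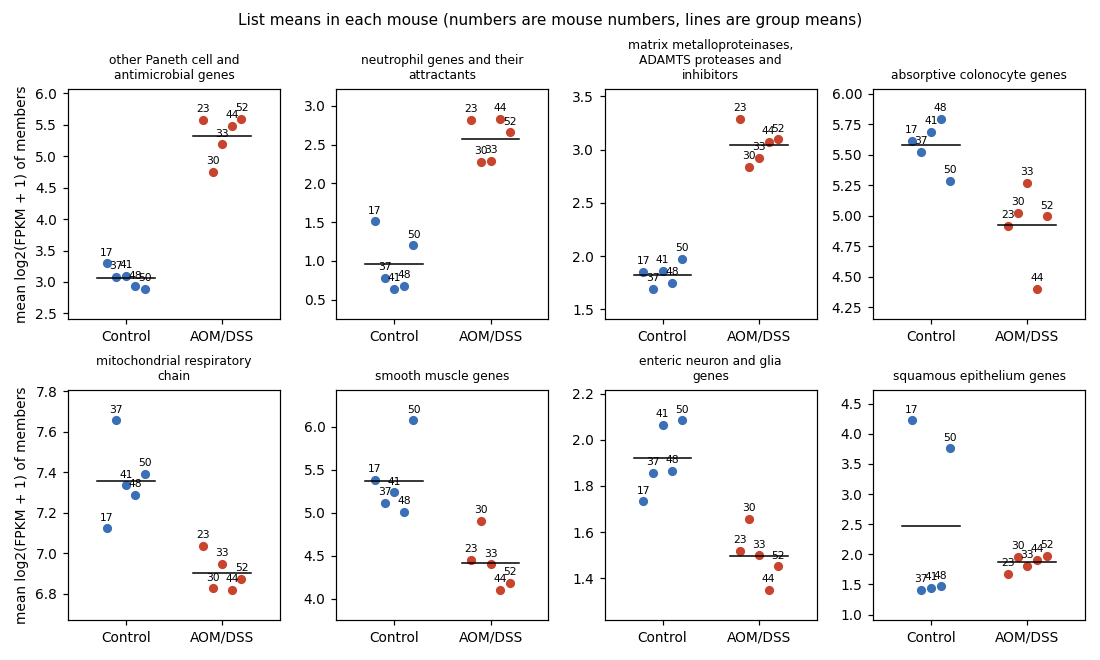
Each point is the mean log2(FPKM + 1) in 1 mouse, numbered, over all members of a list that had a value, tested or not. Lines mark the group means. Control mice 17 and 50 lie above 3.5 for squamous genes, Control mouse 50 above all others for smooth muscle, and AOM/DSS mouse 44 lowest for colonocyte genes.

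Goblet cell genes were mostly not called. Of 25 tested, 4 rose (Spink4, Muc1, Retnlb and Tff1) and none fell, and the median was 0.22. Spink4, a secreted protease inhibitor of goblet cells, rose from 473, 869, 719.6, 832 and 371 to 1856, 1329, 1414, 1283 and 1778 FPKM without overlap, and the membrane mucin Muc1 from 3.18 ± 1.281 to 14.3 ± 4.69. The gel-forming mucin Muc2 did not pass the test (adjusted P = 0.0513), at 252, 356, 982, 588 and 234 FPKM in Control and 938, 891, 1053, 687 and 816 in AOM/DSS mice, where Control mice 17 and 50 were lowest and Control mouse 41 lay within the AOM/DSS range. Zg16, a mucus lectin, was at 2979 ± 1376 and 1925 ± 739 FPKM (adjusted P = 0.326), and Tff3 at 1376 ± 383 and 1161 ± 232. Without Control mice 17 and 50, 3 goblet cell genes rose and 5 fell. Of 18 enteroendocrine genes, 4 fell (Scgn, Sst, Scg2 and Pcsk2) and 1 rose (Nts). Secretagogin, Scgn, a calcium sensor of these cells, fell from 3.96 ± 0.929 to 1.91 ± 0.878 FPKM, while the hormones Pyy and Insl5 did not pass the test (adjusted P = 0.109 and 0.494). Without AOM/DSS mouse 44, or without mouse 52, 2 enteroendocrine genes fell. Leaving out single mice cost Retnlb (3 of 10 mice, adjusted P up to 0.0571), Sst (5 of 10 mice, adjusted P up to 0.0637), Pcsk2 (6 of 10 mice, adjusted P up to 0.0881) and Nts (4 of 10 mice, adjusted P up to 0.0589) their call. Of 12 tuft cell genes, 2 rose, among them Avil, an actin-binding advillin, from 1.07 ± 0.768 to 9.31 ± 5.19 FPKM.

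Crypt base stem cell genes and genes of the regenerating epithelium rose together. Of 21 stem cell genes, 14 rose and none fell, with a median of 0.90. Lgr5, the R-spondin receptor that marks these stem cells, was at 1.19, 2.26, 2.79, 2.27 and 1.297 FPKM in Control and 11.1, 12.1, 14.7, 22.4 and 16.8 in AOM/DSS mice. All 5 AOM/DSS mice were above all Control mice, and the log2 difference was 2.46 ± 0.22 (adjusted P = 3.46e-05). Mex3a, an RNA-binding protein of slowly cycling stem cells, rose 11.5-fold on mean FPKM, and the Wnt feedback genes Axin2 and Rnf43 4.74-fold and 3.76-fold. Hopx, a marker of reserve stem cells, did not pass the test (adjusted P = 0.0679), nor did Lrig1 at 30.6 ± 6.89 and 27.2 ± 2.90 FPKM. All 13 Wnt genes that the study named rose as well, but the study chose them on these mice, so their direction is no independent evidence. Of 28 genes of regenerating and fetal-type epithelium, 16 rose and 1, keratin Krt19, fell. Clusterin, Clu, which marks revival stem cells, was at 17.2, 93.3, 22.3, 27.4 and 15.7 FPKM in Control and 153, 139.9, 166, 242 and 236 in AOM/DSS mice. The tight junction gene Cldn4 rose 7.04-fold on mean FPKM and keratin Krt23 5.95-fold. Ly6a (Sca-1), often used to mark repairing epithelium, was at 190.1 ± 99.9 and 264 ± 99.2 FPKM (adjusted P = 0.35).

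Replication genes rose in part. Of 55 cell cycle genes, 17 rose and none fell, and the median was 0.31. Licensing factor Mcm3 rose from 12.2 ± 3.35 to 25.0 ± 3.74 FPKM, the replisome subunit Gins1 from 4.17 ± 1.32 to 9.46 ± 1.62 and cyclin E1 (Ccne1) from 3.23 ± 0.638 to 6.83 ± 1.76. Cdkn2a, which encodes the p16 and p19 inhibitors of growth, had the largest rise of the list, from 0.0888, 0.0611, 0.101, 0 and 0.131 to 5.05, 2.72, 16.2, 6.66 and 13.8 FPKM, nearly absent in Control mice and present in each AOM/DSS mouse. Cdkn2a had passed the filter through the AOM/DSS mice alone, so its rise is a description. Pcna, the replication clamp, was at 78.0 ± 23.5 and 104 ± 16.6 FPKM (adjusted P = 0.143), and the inhibitor Cdkn1a (p21) at 104.6 ± 14.3 and 95.8 ± 13.1 (adjusted P = 0.503). Genes of intestinal identity were divided. Of 29 tested, 5 fell (Klf4, Hnf4a, Cdx1, Hoxb13 and Lgals4) and 2 rose (Gata5 and Hoxa9). Klf4, a factor of differentiated cells, fell from 270.1, 185, 251, 279 and 222 to 95.6, 136, 117, 61.1 and 83.8 FPKM, the nuclear factor Hnf4a from 129 ± 31.5 to 77.3 ± 9.75 and the homeobox gene Cdx1 from 215 ± 37.7 to 139 ± 21.9. Gata5, a zinc finger factor, rose from 0.0389 ± 0.0288 to 9.06 ± 3.52 FPKM and Hoxa9 from 13.1 ± 2.42 to 23.6 ± 5.87. Of these 2, Gata5 had passed the filter through the AOM/DSS mice alone. Lgals4 lost its call in 6 of the 10 fits that left out 1 mouse (adjusted P up to 0.0733).

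Neutrophil genes and the chemokines that attract neutrophils rose almost throughout. Of 28 tested, 24 rose and none fell, with a median of 1.90, and 9 of the 24 had passed the filter through the AOM/DSS mice alone. S100a8, a chain of the neutrophil protein calprotectin, was at 14.1, 0.25, 0.103, 0 and 13.8 FPKM in Control and 214, 60.5, 62.4, 216 and 119 in AOM/DSS mice, and its partner S100a9 at 15.1, 0, 0, 0.212 and 12.1 and 276, 22.5, 90.2, 229.5 and 167. Control mice 17 and 50 carried clear S100a8 and S100a9 signal and the other 3 almost none, and every AOM/DSS mouse was higher. Without mice 17 and 50, 25 members of the list rose. Cxcl5, an epithelial CXC chemokine, rose from 2.64 ± 2.88 to 73.1 ± 18.1 FPKM and Cxcl2 from 0.065 ± 0.0507 to 27.7 ± 12.7. Retnlg, a resistin-like molecule of neutrophils, rose from 0.295 ± 0.292 to 24.9 ± 14.2 FPKM and Padi4, the enzyme that citrullinates histones in neutrophils, from 0.188 ± 0.197 to 14.9 ± 5.35. Ly6g, the usual surface marker of neutrophils, did not pass the test (adjusted P = 0.264), at 369, 155, 80.8, 109 and 165 FPKM in Control and 123, 141, 93.2, 81.1 and 82.6 in AOM/DSS mice, highest in Control mouse 17. The source of this signal in untreated colon was not tested.

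The promoters of the chemokines Cxcl1, Cxcl2 and Cxcl3, neighbours on chromosome 5, are shown because their genes rose together and each window holds a match to the NF-kB motif GGGANTTTCC (searched on both strands), given in capitals. Cxcl1 rose from 0.923 ± 0.493 to 21.7 ± 16.2 FPKM and Cxcl3 from 0.0242 ± 0.0334 to 6.26 ± 2.22. Both were singled out, and the motif chosen, after the values were seen. Cxcl2 and Cxcl3 had passed the filter through the AOM/DSS mice alone, so their rise was fixed by the filter and is a description. The sequences are the 120 bases before the RefSeq start (GRCm38.p6, plus strand), at chr5:90891125-90891244 for Cxcl1, chr5:90903779-90903898 for Cxcl2 and chr5:90785981-90786100 for Cxcl3.
Cxcl1: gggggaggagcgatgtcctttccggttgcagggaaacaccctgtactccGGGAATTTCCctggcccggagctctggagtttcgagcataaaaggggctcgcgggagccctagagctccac
Cxcl2: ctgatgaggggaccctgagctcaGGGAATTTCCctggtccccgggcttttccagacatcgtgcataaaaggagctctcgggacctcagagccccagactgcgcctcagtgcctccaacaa
Cxcl3: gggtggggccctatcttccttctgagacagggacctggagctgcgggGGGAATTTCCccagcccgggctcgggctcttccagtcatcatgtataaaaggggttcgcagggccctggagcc
The match began 71 bases before the start in Cxcl1, 97 in Cxcl2 and 73 in Cxcl3. In windows from 250 bases before to 50 after the start, this motif occurred in 0.563% of the 11022 tested genes with a window, in 1.68% of the 535 such genes that rose over 2-fold and in 0.521% of the 192 that fell over 2-fold. A match is a description of letters and shows no binding.

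Cytokine genes followed. Of 34 cytokines and interleukin receptors tested, 19 rose and 1, Il18, fell. Il1b, the main secreted interleukin-1, was at 2.29, 5.91, 3.66, 0.849 and 0.85 FPKM in Control and 50.1, 32.5, 36.3, 73.4 and 71.7 in AOM/DSS mice, with no overlap and a log2 difference of 3.97 ± 0.39 (adjusted P = 6.64e-05). Il1rl1, the receptor of interleukin-33, rose from 1.16 ± 0.484 to 29.7 ± 3.34 FPKM, Il11, a stromal cytokine that signals through gp130, from 0.244 ± 0.214 to 5.75 ± 3.73, and Il23a, a subunit of interleukin-23, from 0.125 ± 0.113 to 5.54 ± 2.32. Tnfrsf11b, osteoprotegerin, a decoy receptor for RANKL, had the largest rise of the list, 4.50 ± 0.25 on the log2 scale. Il6 missed the filter, at 0 to 0.117 FPKM in Control and 0.297 to 5.11 in AOM/DSS mice. The receptor chain Il13ra1 was at 35.5 ± 4.45 and 39.3 ± 2.35 FPKM and did not pass the test (adjusted P = 0.333). Of 35 CC and lymphoid chemokine genes, 16 rose and 1, the epithelial chemokine Ccl28, fell (from 60.6 ± 8.003 to 30.1 ± 4.04 FPKM). Cxcl14, a chemokine of epithelium and stroma, rose from 8.54 ± 2.26 to 45.8 ± 8.98 FPKM and Cxcl9, an interferon-induced attractant of T cells, from 0.765 ± 0.835 to 7.83 ± 6.35. Without Control mice 17 and 50, 15 cytokine genes and 11 of these chemokine genes rose.

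Matrix metalloproteinases, enzymes that cut collagen and other matrix proteins, rose strongly. Of 31 metalloproteinase, ADAMTS and inhibitor genes, 19 rose and 3 fell (Adamts15, Timp4 and Mmp17), with a median of 0.83. Timp4 lost its call in 8 of the 10 fits that left out 1 mouse (adjusted P up to 0.0883). Mmp7, matrilysin, which also processes defensins in Paneth cells, was listed at 0 in every Control mouse and stood at 342, 191, 234, 598 and 498 FPKM in AOM/DSS mice, lowest in mouse 30. Stromelysin Mmp10 was at 0.266, 0.604, 0.284, 0.307 and 0.307 FPKM in Control and 106, 28.1, 51.8, 46.5 and 79.6 in AOM/DSS mice, and collagenase Mmp13 at 1.58, 2.31, 1.22, 1.03 and 0.773 and 86.2, 26.8, 24.0, 25.7 and 41.4. No Control value of these genes reached an AOM/DSS value. Gelatinase Mmp9, known from neutrophils, rose from 0.979 ± 0.495 to 17.1 ± 6.23 FPKM, macrophage elastase Mmp12 from 0.329 ± 0.165 to 6.26 ± 2.21 and tissue plasminogen activator Plat from 7.22 ± 4.89 to 51.1 ± 28.6. The inhibitor Timp3 did not pass the test, at a log2 difference of 0.31, and the activator Plau was at 9.60 ± 3.03 and 14.6 ± 5.45 FPKM (adjusted P = 0.158).

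Many of these genes lie side by side on chromosome 9, from Mmp13 at chr9:7272514-7283331 to Mmp7 at chr9:7692090-7699585 (GENCODE M21, GRCm38, plus strand). Of 9 genes of this cluster, the 6 that passed the filter, Mmp13, Mmp12, Mmp3, Mmp10, Mmp8 and Mmp7, all rose. Mmp7 and Mmp8 had passed it through the AOM/DSS mice alone, so their rise was fixed by the filter and is a description. Mmp1a, Mmp27 and Mmp20 did not pass, with AOM/DSS means of 0.00293, 0.0614 and 0.205 FPKM. Mmp3 (log2 difference 2.22 ± 0.62) lost its call without Control mouse 41 or 48 (adjusted P up to 0.0564), or without mice 17 and 50 (adjusted P = 0.0751). The 120 bases before the RefSeq starts are shown because 5 of the 6 windows hold a match to the AP-1 motif TGANTCA, given in capitals, which was chosen after the values were seen. They lie at chr9:7272394-7272513 (Mmp13), chr9:7347254-7347373 (Mmp12), chr9:7445702-7445821 (Mmp3), chr9:7502222-7502341 (Mmp10) and chr9:7691970-7692089 (Mmp7).
Mmp13: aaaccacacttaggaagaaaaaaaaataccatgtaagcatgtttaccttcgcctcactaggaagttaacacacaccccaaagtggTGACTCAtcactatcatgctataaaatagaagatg
Mmp12: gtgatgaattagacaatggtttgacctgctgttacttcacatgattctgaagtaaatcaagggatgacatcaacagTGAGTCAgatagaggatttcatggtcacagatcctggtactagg
Mmp3: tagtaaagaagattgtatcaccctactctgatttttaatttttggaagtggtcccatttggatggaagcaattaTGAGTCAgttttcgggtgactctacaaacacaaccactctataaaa
Mmp10: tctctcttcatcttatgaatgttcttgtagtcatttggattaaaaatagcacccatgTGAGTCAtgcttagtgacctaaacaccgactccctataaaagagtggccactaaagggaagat
Mmp7: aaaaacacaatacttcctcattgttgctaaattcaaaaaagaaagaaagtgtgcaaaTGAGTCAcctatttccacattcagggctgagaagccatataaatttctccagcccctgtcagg
The match began 35 bases before the start in Mmp13, 44 in Mmp12, 46 in Mmp3 and 63 in both Mmp10 and Mmp7. The longer window of Mmp8 holds none. In the longer windows the motif occurred in 6.74% of the 11022 tested genes with a window, in 14.4% of the 535 that rose over 2-fold and in 7.81% of the 192 that fell over 2-fold.

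The connective tissue showed rises in basement membrane and in a few stromal factors. Of 39 collagen and basement membrane genes, 14 rose and 2 fell (Col4a6 and Col8a2), and between 8 and 12 rose when single mice were left out, with 8 without Control mouse 48 or AOM/DSS mouse 44 and 9 without Control mouse 17. Col18a1, the source of endostatin, rose from 1.19, 1.26, 3.24, 1.65 and 3.76 to 5.95, 40.7, 44.1, 6.38 and 38.8 FPKM without overlap. The basement membrane collagen Col4a1 rose from 28.7 ± 8.02 to 82.5 ± 18.8 FPKM and the laminin chain Lama1 from 0.287 ± 0.0666 to 2.86 ± 0.459. The fibrillar collagen Col3a1 did not pass the test, at 139 ± 35.4 and 176 ± 25.7 FPKM (adjusted P = 0.182). Of 38 fibroblast and matricellular genes, 13 rose and 8 fell, and without Control mice 17 and 50 there were 11 and 4. Osteopontin, Spp1, rose from 0.156 ± 0.0942 to 26.8 ± 17.9 FPKM, the BMP antagonist Grem1 from 17.6 ± 4.42 to 62.6 ± 27.1, Bmp7 from 2.91 ± 0.532 to 13.02 ± 3.12 and the collagen crosslinking enzyme Lox from 2.15 ± 0.632 to 7.70 ± 2.06. Osteoglycin, Ogn, fell from 49.8 ± 8.45 to 18.9 ± 6.51 FPKM. Elastin, Eln, did not pass the test, at 17.5 ± 5.20 and 10.6 ± 7.21 FPKM (adjusted P = 0.15).

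Genes of macrophages and lymphocytes were also higher. Of 33 macrophage, monocyte and dendritic cell genes, 18 rose and 1, the scavenger receptor Cd163, fell (from 1.39 ± 0.707 to 0.147 ± 0.0706 FPKM), with a median of 0.64. Cd163 had passed the filter through the Control mice alone, so its fall was fixed by the filter and is a description. The inhibitory receptor Cd300lf rose from 0.341 ± 0.293 to 4.58 ± 1.18 FPKM, and the integrins Itgax (CD11c) and Itgam (CD11b) from 2.15 ± 0.837 to 6.33 ± 1.35 and from 3.78 ± 1.91 to 9.76 ± 2.74. The complement genes C1qa and C1qc of resident macrophages did not pass the test (adjusted P = 0.159 and 0.356). Of 32 T and NK cell genes, 22 rose, and 11 without Control mice 17 and 50. Granzyme B, Gzmb, a killer protease, was at 0.5, 1.53, 1.16, 0.542 and 0.408 FPKM in Control and 2.61, 3.63, 4.63, 3.30 and 4.99 in AOM/DSS mice, low in level and without overlap. The checkpoint receptor Ctla4 rose from 0.423 ± 0.277 to 2.07 ± 0.628 FPKM. Of 48 genes of interferon response and antigen presentation, 19 rose and 1, the peptide transporter Tap2, fell, a call lost in 8 of the 10 fits that left out 1 mouse (adjusted P up to 0.0932). Usp18, which removes ISG15, rose from 1.46 ± 0.922 to 10.8 ± 3.05 FPKM, Ifit2 from 2.33 ± 0.47 to 13.8 ± 1.88 and the guanylate-binding protein Gbp2 from 9.14 ± 6.79 to 33.4 ± 12.0. The abundant antigen presentation genes B2m, Cd74 and H2-K1 did not pass the test (adjusted P = 0.496, 0.674 and 0.446).

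Plasma cell products took a larger part of the RNA. The 269 immunoglobulin genes held 1.54% ± 0.369 of summed FPKM in Control and 5.10% ± 1.90 in AOM/DSS mice (SD, n = 5, exact two-sided permutation P = 0.00794, adjusted 0.0132). Mouse 33 had the highest share, 8.22%, and Control mouse 50 the lowest, 0.963%. Igha, the heavy chain of the gut antibody IgA, was at 1358, 1667, 2181, 1811 and 1028 FPKM in Control and 3193, 5270.2, 7859.8, 3523 and 4348 in AOM/DSS mice. Ighg2c, an IgG heavy chain, was at 16.5, 51.5, 11.4, 7.05 and 5.20 FPKM in Control and 401, 178, 363, 372 and 188 in AOM/DSS mice. The log2 difference was 4.32 ± 0.52 for Ighg2c and 1.56 ± 0.27 for Igha, with no overlap in either. Ighg2b and Ighg1 rose by 2.97 and 2.24. Of 35 B and plasma cell genes, 15 rose and none fell, 9 rose without Control mice 17 and 50, and 25 without Control mouse 37. Jchain, which joins IgA pairs, did not pass the test (adjusted P = 0.512), and the IgA transporter Pigr, of epithelium, was at 1197 ± 218 and 912 ± 148 FPKM (adjusted P = 0.101). Among 172 immunoglobulin variable genes tested, 84 (48.8%) rose.

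**Figure D4:**
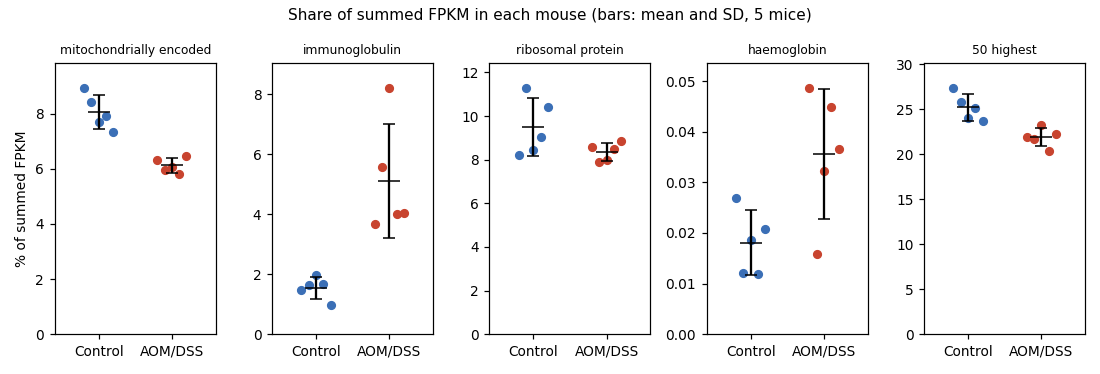
Each point is the percentage of a mouse's summed FPKM in a gene class, with the mean and SD of 5 mice per group in black, on axes from 0. The immunoglobulin share is higher in every AOM/DSS mouse (3.67 to 8.22%) than in every Control mouse (0.963 to 1.97%), and the mitochondrially encoded share is lower (5.80 to 6.48% against 7.34 to 8.94%).

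Mast cell proteases stood out among the remaining immune genes. Of 13 mast cell and eosinophil genes tested, 11 rose and none fell, 3 of them having passed the filter through the AOM/DSS mice alone, and 6 rose without Control mice 17 and 50. Mcpt1, a chymase of mucosal mast cells, was at 0.723, 0.931, 0.875, 1.03 and 0.622 FPKM in Control and 43.9, 57.0, 157, 20.9 and 106 in AOM/DSS mice, and Mcpt2 at 0.0576, 0.361, 0.388, 0.235 and 0.0553 and 24.5, 31.0, 83.0, 15.2 and 60.2. Both were low in every Control mouse and present in every AOM/DSS mouse. Histidine decarboxylase, Hdc, which makes histamine, rose from 0.225 ± 0.0613 to 6.22 ± 1.72 FPKM, carboxypeptidase Cpa3 from 0.276 ± 0.285 to 6.92 ± 4.06 and the IgE receptor chain Fcer1a from 0.0833 ± 0.128 to 2.57 ± 1.90. Mcpt2, Hdc and Fcer1a were the 3 that had passed the filter through the AOM/DSS mice alone. Their rises were fixed by the filter and are descriptions. Kit, the growth factor receptor of mast cells and of pacemaker cells in the gut wall, did not pass the test (adjusted P = 0.547).

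Smooth muscle and enteric nerve genes were lower. Of 23 smooth muscle genes, 16 fell and none rose, with a median of -1.03, and 8 fell without Control mice 17 and 50. Smooth muscle actin, Acta2, was at 661, 708, 567, 540.0 and 1254 FPKM in Control and 297, 394, 292, 216 and 238 in AOM/DSS mice, and the myosin light chain Myl9 at 538, 514, 391, 391 and 1026 and 173, 276, 202, 137 and 174. Both kept their call without mice 17 and 50. Phospholamban, Pln, a regulator of the calcium pump, fell from 4.08 ± 2.18 to 1.04 ± 0.69 FPKM. Myh11, from 217 ± 128 to 74.1 ± 40.0 FPKM (adjusted P = 0.0172), lost its call without these 2 mice (adjusted P = 0.0698). Synaptopodin 2, Synpo2, did not pass the test, at 11.01 ± 6.41 and 5.42 ± 2.08 FPKM. Some markers of fat and skeletal muscle had lower means as well. The fat gene Adipoq, which missed the filter, was at 0.907 ± 0.507 and 0.0412 ± 0.0921 FPKM in Control and AOM/DSS mice, and Plin1, which also missed it, at 0.68 ± 0.566 and 0.0398 ± 0.0473, both without overlap. The third fat marker, Cidec, did not pass the test at 1.63 ± 0.83 and 1.90 ± 0.623 FPKM. Of the skeletal muscle markers, Ckm fell from 9.55 ± 5.39 to 2.03 ± 1.05 FPKM, Acta1 did not pass the test at 5.45 ± 8.81 and 3.30 ± 0.72 FPKM, and Myh4 was at or near 0 in all 10 mice. The part of these tissues in the smooth muscle result was not tested. Of 24 enteric neuron and glia genes, 11 fell and 1 rose. The neuronal genes Stmn2 and Uchl1 fell from 7.04 ± 1.27 to 2.99 ± 0.715 and from 12.4 ± 3.26 to 6.75 ± 1.42 FPKM, and the glial gene S100b from 1.46 ± 0.236 to 0.353 ± 0.331. The exception was Ret, a receptor of enteric neurons that other cells also express, which rose from 1.38, 1.84, 2.80, 1.64 and 2.36 to 7.20, 7.02, 4.28, 9.27 and 12.2 FPKM.

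Genes of blood and lymph vessels were higher in part. Of 31 endothelial and lymphatic genes, 16 rose and none fell. The adhesion molecules Icam1 and Selp (P-selectin), through which leukocytes leave the blood, rose from 4.20 ± 1.17 to 15.7 ± 2.56 and from 1.14 ± 0.534 to 4.70 ± 2.41 FPKM. Angpt2, a destabiliser of vessels, rose from 1.18 ± 0.36 to 3.99 ± 1.36 FPKM, and Prox1, a lymphatic and tumour-associated homeobox gene, from 0, 0.0305, 0.00325, 0 and 0 to 0.763, 1.06, 0.918, 2.31 and 0.686. Vegfa, the main vascular growth factor, did not pass the test, at 9.88 ± 5.29 and 9.47 ± 4.00 FPKM (adjusted P = 0.994), and the vessel genes Lyve1 and Cldn5 did not either (adjusted P = 0.0701 and 0.227). Squamous genes depended on the libraries that stood apart. Of 22 tested, 4 rose (Gsdma, Sprr2h, Cdh3 and Pkp1) and 2 fell (Gsdmc4 and Gsdmc2) with all 10 mice, and 11 rose and 1 fell without Control mice 17 and 50. In 7 of the 10 fits that left out 1 mouse, 2 squamous genes rose. Gsdma, a gasdermin of squamous epithelium, rose from 3.50, 0.677, 0.712, 1.06 and 1.52 to 13.9, 10.52, 6.58, 18.7 and 17.3 FPKM. Omission of single mice cost Gsdmc2 (8 of 10 mice, adjusted P up to 0.0965), Sprr2h (8 of 10 mice, adjusted P up to 0.104) and Pkp1 (8 of 10 mice, adjusted P up to 0.108) their call. Gsdmc4, a gasdermin of colonocytes, fell from 353 ± 115 to 144 ± 45.1 FPKM. Krt13 was not called with all mice (adjusted P = 0.947). Of 14 acinar, gastric and small intestinal genes tested, 4 fell (Sycn, Fabp6, Otc and Slc5a1) and 2 rose (Gkn3 and Tff1). Gkn3, a gastrokine of the stomach, was at 0.357, 0.495, 0.18, 0.218 and 0.788 FPKM in Control and 2.27, 0.57, 7.02, 3.52 and 7.84 in AOM/DSS mice.

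Among genes of signalling and stress, most members did not pass the test. Of 24 prostaglandin pathway genes, 5 rose (Pla2g2a, Alox12, Alox15, Ptgs2 and Ptgr1) and 3 fell (Hpgd, Ptgis and Ptges2). Ptgs2, the inducible cyclooxygenase, rose from 2.42, 1.33, 1.85, 1.94 and 1.19 to 16.3, 3.13, 4.48, 7.58 and 8.41 FPKM, and Hpgd, the enzyme that breaks prostaglandins down, fell from 80.8, 102, 74.8, 83.5 and 113 to 38.0, 41.1, 50.2, 30.1 and 32.1. Neither gene overlapped between groups. The count of risers was 3 when Control mouse 17, 41 or 48 or AOM/DSS mouse 23 was left out. Such omissions cost Alox15 (5 of 10 mice, adjusted P up to 0.0747), Ptgr1 (8 of 10 mice, adjusted P up to 0.102) and Ptges2 (8 of 10 mice, adjusted P up to 0.0914) their call. Of 15 EGF family genes, 3 rose (Adam10, Nrg1 and Btc) and 1, the feedback inhibitor Errfi1, fell, and 1 rose without Control mouse 37 or AOM/DSS mouse 44 or 52. Adam10, which sheds growth factors from the membrane, rose from 27.3 ± 4.85 to 58.1 ± 7.22 FPKM, while the ligand Areg and the receptor Erbb2 did not pass the test (adjusted P = 0.526 and 0.344). Nrg1 and Btc each lost its call when single mice were left out, 6 and 6 of the 10 (adjusted P up to 0.0795 and 0.0831). Of 35 genes of hypoxia and glycolysis, 7 rose and 1, Hk1, fell (not without AOM/DSS mouse 52, adjusted P = 0.0514), near the share of all genes. The lactate exporter Slc16a3 rose from 7.12 ± 4.53 to 35.03 ± 13.5 FPKM and Pfkfb3, an activator of glycolysis, from 3.34 ± 1.72 to 9.81 ± 0.938, but the glycolytic enzymes Ldha and Eno1 did not pass the test, with log2 differences of -0.26 and 0.23.

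Of 30 genes of endoplasmic reticulum stress and protein folding, 12 rose and 2 fell (Atf3 and Hspa1a), but 6 rose after median-of-ratios scaling and 3 without Control mice 17 and 50. Asparagine synthetase, Asns, rose from 10.46 ± 2.18 to 23.1 ± 7.05 FPKM and held in these settings, while Hspa1a lost its call in 6 of the 10 fits that left out 1 mouse (adjusted P up to 0.0844) and the chaperone Hspa5 (BiP), from 162 ± 27.3 to 275 ± 66.8 FPKM (adjusted P = 0.0127), lost its call without mice 17 and 50 (adjusted P = 0.0546). Of 31 p53 target and DNA damage genes, 8 rose, each by less than 2-fold on the log2(FPKM + 1) scale, and none fell. Trp53inp1 rose from 18.1 ± 3.61 to 36.8 ± 7.85 FPKM and Phlda3 from 9.44 ± 2.65 to 19.6 ± 5.38, and Bax and Ccng1 did not pass the test (adjusted P = 0.16 and 0.0741). The number of p53 target genes that rose was 4 after median-of-ratios scaling, 4 without Control mice 17 and 50, 3 without Control mouse 17, 48 or 50 or AOM/DSS mouse 44, 4 without AOM/DSS mouse 23 or 52, and 5 without Control mouse 41 or AOM/DSS mouse 33.

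The AOM/DSS mice did not all move by the same amount. Over the 853 genes that rose over 2-fold, mouse 44 was the highest of the 5 in 336 and mouse 33 the lowest in 307. Over the 271 that fell over 2-fold, mouse 44 was the lowest in 147 and mouse 30 the highest in 140. The median log2 distance from the Control mean was 1.79 in mouse 44 and 1.46 in mouse 30 for the higher genes, and -1.64 and -0.99 for the lower genes. Mouse 30 thus held more of the Control pattern in genes such as Cyp2c55 and Sycn. These genes were chosen by their group difference, so the distances from Control are a description. Replicates were close over all genes, with Pearson correlations across genes of 0.939 to 0.960 between Control mice and 0.942 to 0.955 between AOM/DSS mice.

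Noncoding genes were part of the change. Of 262 long intergenic noncoding RNAs tested, 50 rose (19.1%) and 18 fell (6.87%), beside 17.3% and 7.63% of 13526 protein-coding genes. Of 890 processed pseudogenes tested, 5.62% rose and 3.93% fell. H19, an imprinted noncoding RNA silent in most adult tissue and singled out after its values were seen, was at 0.912, 0.0239, 0.045, 0.0545 and 0.077 FPKM in Control and 5.19, 0.871, 11.5, 3.16 and 5.00 in AOM/DSS mice. It rose by 2.12 ± 0.42 on the log2 scale (adjusted P = 0.00495).

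The same contrast in the other 10 mice, PZH + AOM/DSS against PZH, shared no mouse with the comparison above. It gave 378 called genes of 15636 (2.42%), 272 higher and 106 lower. Of the 853 genes that rose over 2-fold without PZH, 692 were tested there, 674 (97.4%) differed in the same direction and 123 (17.8%) were called, with 1.74% of all genes called higher. Of the 271 that fell, 269 were tested, 257 (95.5%) differed in the same direction and 39 (14.5%) were called, with 0.678% of all genes called lower. None was called in the opposite direction. The share of all genes with the same direction in both contrasts was not counted, so the 97.4% and 95.5% have no background beside them. Of the genes tested there, 21 of the 692 and 1 of the 269 had passed the filter through 1 group alone, and 5 and 0 of these were called. The medians were smaller in the PZH mice, 0.84 against 1.47 for the higher genes and -0.68 against -1.29 for the lower genes, and these genes had been picked by their size in the mice without PZH. Mmp7 was listed at 0 in all 5 PZH mice and at 136 ± 212 FPKM in PZH + AOM/DSS mice, and Defa24 at 0.0311 ± 0.0696 and 249.8 ± 462. Both passed the filter there through the PZH + AOM/DSS mice alone, so their values are a description. Clca4b was not called there, at 57.2 ± 73.8 FPKM in PZH and 289.7 ± 191 in PZH + AOM/DSS mice (log2 difference 2.61, adjusted P = 0.41). The count of 378 called genes was 52 without PZH mouse 27, 62 without PZH mouse 53, 74 without PZH + AOM/DSS mouse 15, 81 without PZH mouse 14, 111 without PZH mouse 46, 180 without PZH + AOM/DSS mouse 2 and 231 without PZH mouse 8.

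**Figure D5:**
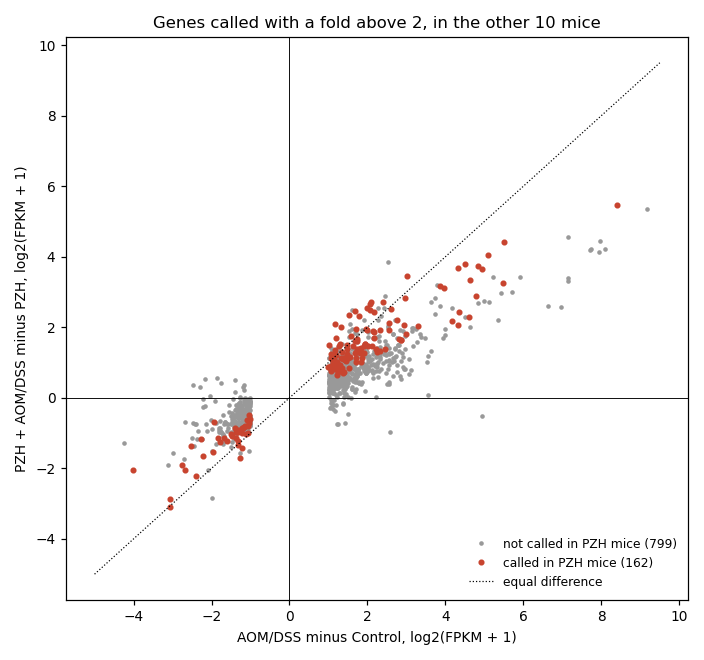
Each point is a gene called with a fold above 2 in AOM/DSS against Control, by its log2(FPKM + 1) difference there (horizontal) and in PZH + AOM/DSS against PZH (vertical), red where also called in the PZH mice, with a dotted line of equality. Most points share their sign, and most lie nearer to 0 on the vertical axis.

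The difference between the 2 contrasts was tested as an interaction over all 20 mice. Of 16936 genes, 2 were called (0.0118%) and 1749 (10.3%) had an unadjusted P under 0.05. Atf3, a stress-induced transcription factor, fell from 25.2 ± 7.31 to 11.9 ± 2.47 FPKM without PZH and was at 11.6 ± 5.15 in PZH and 29.0 ± 7.56 in PZH + AOM/DSS mice (interaction 2.30 on the log2 scale, adjusted P = 0.0459). Zfat, a zinc finger gene, was at 0.096 ± 0.0379 and 2.13 ± 0.354 FPKM without PZH and at 1.06 ± 0.452 and 0.583 ± 0.726 with it (interaction -1.97, adjusted P = 0.0459). The count was 492 without PZH + AOM/DSS mouse 35 and 0 or 1 without any other single mouse. For Clca4b, the interaction was -4.02 with an adjusted P of 0.478, so the 2 arms were not shown to differ in that gene.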

How the data were processed

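Colon RNA of 20 male C57BL/6 mice in 4 groups was sequenced, 1 library per mouse, and the 10 Control and AOM/DSS mice were compared. The labels give separate mice and no batch. According to the methods of the study, read quality was assessed with FastQC v0.11.5, low-quality reads were removed with NGSQC v2.3.3, and reads were aligned to mm10 with HISAT2 v2.1.0 and assembled and quantified with StringTie v1.3.3b. The authors deposited FPKM per transcript, scaled by transcript length and mapped fragments, without counts. The authors' own test, by DESeq v1.28.0, was not repeated here, since the deposited values are no read counts. The files hold no values of other samples.

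FPKM values were summed per gene over 96032 Ensembl transcripts found in GENCODE M21. The 150 Ensembl transcripts not found there and 22252 assembled transcripts without a gene stayed out of the gene sums. The latter held 12.1 to 14.8% of summed FPKM in the 10 mice. FPKM divides by an effective total that a few abundant transcripts can move, and estimates of near-identical genes share reads. Genes that reached 0.5 FPKM in 5 or more of the compared mice were tested on log2(FPKM + 1) with limma 3.58.1 (R 4.3.3, intensity trend, moderated test, Benjamini-Hochberg adjustment over all genes tested, threshold 0.05). Fold changes on this scale understate the change of low genes. Folds on mean FPKM are given where named so. Log2 differences carry the SE of the fit, and ± after a mean is the SD over 5 mice. Shares were tested with exact two-sided permutation tests, adjusted over 5 shares. The interaction used all 20 mice and 4 group means. Depth was read from the smallest steps of FPKM times length in genes with 1 transcript, so counts per gene were not recovered and no counting interval is given. Promoter sequences are from RefSeq (GRCm38.p6) and gene positions from GENCODE M21, both of the build the authors used. The limma procedure was tested on simulated data. No libraries were duplicates. At most 0.0453% of nonzero values were identical between replicates.

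The gene lists, the comparison and the tests were chosen with earlier results of these data known. Genes were named by rule: the 15 largest rises and falls among called genes without overlap, at 5 FPKM or more in the higher group, without clone names and with at most 2 per symbol stem, then up to 6 called and 4 other members of each list, the 10 highest genes and those called in the interaction. Some of these are given only in the plot of named genes or as counts. Some list members that the rule would name are not reported here. Markers of colon and of other tissues came from a marker list. Members of counts of 5 or fewer, the untested Il6, Reg3b, Defa25, Defa27, Defa28 and Defa29, the metalloproteinase cluster, Cxcl1, Cxcl3 and H19 were named after their values were seen. Alternatives were other scalings, filters, pseudocount, variance model and weights, all 20 mice in 1 model, single transcripts, each mouse left out in turn and, added after seeing the data, Control mice 17 and 50 left out.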

Additional observations from a re-analysis of the deposited data

Results flagged for a closer look

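In 60 values of a gene in a group of 5 mice, 4 had 1 mouse far from the other 4. In normally distributed values about 1 in 20 groups, or 3 of 60, would be found so. These genes were picked for separate groups, and Defa24 and Mmp7 were at 0 in all Control mice. The figure of 3 is therefore only a rough guide. Defa20 was at 0.129 FPKM in Control mouse 37 and listed at 0 in the other 4 Control mice. Mmp10 was at 0.604 FPKM in Control mouse 37 and at 0.266 to 0.307 in the others. Pnliprp1 was at 0.492 FPKM in Control mouse 41 and at 0.896 to 1.06 in the others. Tnnt2 was at 3.76 FPKM in AOM/DSS mouse 23 and at 0.375 to 0.931 in the other AOM/DSS mice.

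The AOM/DSS difference itself differed between the arms with and without PZH in 2 genes by the interaction test, Atf3 (2.30 on the log2 scale) and Zfat (-1.97). The single-mouse omissions are given with these genes above.

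Transcripts that the authors assembled without a gene were outside the gene sums. Of 10467 such transcripts tested with the same filter and fit, 607 were called in AOM/DSS against Control, 411 higher and 196 lower, of which 273 and 119 also passed a fold of 2. These transcripts carry no gene name in the files, and 2201 of 29997 Ensembl transcripts were called in the same fit.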

How the results depend on the processing

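AOM/DSS against Control gave 2789 to 3588 called genes when single mice were left out (1965 to 2497 higher, 824 to 1113 lower) and 2783 without Control mice 17 and 50 (1891 higher, 892 lower). The lower genes numbered 1882 after upper-quartile scaling against 1143 as deposited. With all values as single transcripts, 2808 of 40464 transcripts were called. The PZH contrast gave 90 called genes without a filter on low values (63 higher, 27 lower) and 52 to 400 when single mice were left out (40 to 274 higher, 12 to 128 lower). The interaction gave 0 to 492. No paired analysis was possible because the mouse numbers differ between the groups.

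Of 35 gene lists, 7 moved by over 1.5 times when single mice were left out, 3 under median-of-ratios scaling and 7 without Control mice 17 and 50. Over single omissions the lower enteroendocrine genes numbered 2 to 4, and the higher members 8 to 12 for collagens, 12 to 25 for B and plasma cells, 2 to 5 for squamous genes, 3 to 5 for prostaglandin genes, 1 to 3 for the EGF family and 3 to 10 for p53 targets. Median-of-ratios scaling left 2 squamous, 6 endoplasmic reticulum and 4 p53 target genes higher. Without Control mice 17 and 50 there were 11 T and NK cell, 9 B and plasma cell, 6 mast cell, 11 squamous, 3 endoplasmic reticulum and 4 p53 target genes higher and 8 smooth muscle genes lower.

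Of 178 called genes named here, none changed direction in any of these settings. In 23 the call was lost when at least 1 single mouse was left out, in 22 without Control mice 17 and 50, in 17 without the filter, in 8 and 7 after upper-quartile and median-of-ratios scaling and in 7 with all 20 mice in 1 model. Without Control mice 17 and 50, the sole or few falling members Col4a6, Errfi1, Hk1, Hspa1a, Scg2 and Tap2 lost their call (adjusted P = 0.0515 to 0.0846). So did the falling members Ptges2, Pcsk2, Lgals4, Gsdmc2 and Timp4 (adjusted P = 0.0562, 0.0824, 0.15, 0.177 and 0.181). At 1 FPKM in all 10 mice, 77 of them were not tested. Genes that changed sign were not called in the comparison as reported. After median-of-ratios and upper-quartile scaling the log2 differences were -0.0687 and -0.118 for Cdh1, -0.0897 and -0.139 for Cdh17 and -0.10 and -0.14 for Vegfa, and after upper-quartile scaling -0.0150 for Il13ra1. Without Control mice 17 and 50, Kit was at -0.0722 and Krt13 at 2.44, and Krt13 at 0.15 with quality weights and 0.56 with a pseudocount of 0.1. Over single omissions the ranges were -0.0415 to 0.0914 for Cdh1, -0.0355 to 0.0987 for Cdh17, -0.236 to 0.221 for Vegfa, -0.0806 to 0.774 for Acta1 and -0.856 to 0.809 for Krt13. The causes were not tested. Without counts, depth limits for single low genes could not be set.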

Other observations

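Among the other gene classes, the 8 haemoglobin genes held 0.0181% ± 0.0064 of summed FPKM in Control and 0.0357% ± 0.0128 in AOM/DSS mice (SD, n = 5, exact two-sided permutation P = 0.0317, adjusted over 5 shares 0.0397), higher in 4 of 5 AOM/DSS mice than in every Control mouse. The 96 ribosomal protein genes held 9.48% ± 1.32 and 8.36% ± 0.407 (exact permutation P = 0.119, adjusted 0.119), a difference within the spread between mice. The 50 genes with the highest mean FPKM over the 10 mice held 25.2% ± 1.47 in Control and 21.9% ± 1.01 in AOM/DSS mice (exact permutation P = 0.00794, adjusted 0.0132), with no overlap. They include mt-Co1 and other mitochondrially encoded genes, so this share is not separate from the mitochondrial share above.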
